A study of Mus musculus with 18 samples.

Results

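Insulin and the insulin-like growth factors signal through a short chain of proteins, and 10 genes of that chain were followed across the regions of the infarcted mouse heart: Igf1, Igfbp5, Insr, Igf1r, Irs1, Irs2, Pik3r1, Pik3ca, Akt1 and Akt2. They are 10 of the 25230 gene symbols in the deposited count table, and all 10 were found in it by symbol. The genes were listed by name with results of these data already known. Irs2 was selected on its difference between liraglutide and PBS in the atria, so its atrial values are given as a description without a test; the list of the other 9 records no measured value as its ground. Polyadenylated RNA was sequenced from male C57BL/6J mice 3 days after the left anterior descending coronary artery had been ligated. The mice had been given either liraglutide, a GLP-1 receptor agonist, or PBS. The regions sampled were the atria and, from the left ventricle (LV), the infarcted and the non-infarcted muscle. This gave 6 groups of 3 libraries: atria with PBS, atria with liraglutide, infarcted LV with PBS, infarcted LV with liraglutide, non-infarcted LV with PBS and non-infarcted LV with liraglutide. All animals carried a ligation; sham-operated hearts were not analysed here. The sources used here give neither the dose nor the schedule of liraglutide, nor whether tissue of several animals was pooled.

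Insulin and IGF-1 bind receptor tyrosine kinases, encoded by Insr and Igf1r, which phosphorylate the docking proteins IRS1 and IRS2. Phosphorylated IRS proteins recruit phosphoinositide 3-kinase, a dimer of a regulatory subunit such as that of Pik3r1 (p85-alpha) and a catalytic subunit such as that of Pik3ca (p110-alpha), and the lipid it makes activates the AKT kinases. In heart muscle this route governs glucose uptake, protein synthesis and growth, and AKT keeps the FOXO transcription factors out of the nucleus. FOXO factors in turn are known to raise transcription of Irs2 and Insr, and Irs2 is also known as a target of cAMP signalling in liver and pancreatic islets.

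Library totals ran from 4280459 to 21853482 counts, and the counts of single members ran from 52 (Igf1, lowest library) to 15013 (Igfbp5, highest library). Atrial and LV libraries carried the chamber markers their labels call for. These markers do not bear on the infarcted label. The ventricular light chain gene Myl2 stood at 7695 to 11179 CPM (counts-per-million of the column total) in the 12 LV libraries, and 5 atrial markers summed to 11260 to 16954 CPM in the 6 atrial ones. Some libraries held markers of other tissue. Atria with liraglutide replicate 3 and replicate 1 had Myl2 at 924 and 275 CPM, against 2.08 to 8.82 CPM in the other 4 atrial libraries, and atria with PBS replicate 2 had the fat cell gene Adipoq at 79.2 CPM (0.319 to 4.84 CPM in the other 5). The atrial markers summed to 212 CPM in non-infarcted LV with PBS replicate 1. Infarcted LV still held much heart muscle RNA, with Myh6 at 27680 to 36093 CPM against 39190 to 46229 CPM in non-infarcted LV. In bulk tissue a change in cell numbers and a change in RNA per cell cannot be told apart.

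Levels are CPM in the order replicate 1, 2, 3, group values are mean ± SD (n = 3), and fold changes are log2 with a standard error (SE), from edgeR with TMM scaling; adjusted p values are from its quasi-likelihood test, with Benjamini-Hochberg adjustment over all tested genes and a threshold of 0.05. The comparisons of infarcted LV and of atria share the non-infarcted libraries within a treatment. Per kilobase of exon, Akt1 was the most abundant of the 10 over the 18 libraries, with a mean of 54.4 CPM per kilobase (RPKM), followed by Igfbp5 (48.4), Akt2 (34.5), Pik3r1 (20.5), Irs2 (17.9) and Insr (17.3). Pik3ca (7.13), Igf1r (4.81), Irs1 (3.997) and Igf1 (1.05) were lower on the same scale. The range over libraries differed between genes: the highest library exceeded the lowest 10.1-fold in CPM for Igfbp5, 7.20-fold for Irs2 and 4.86-fold for Igf1, but 1.48-fold for Akt2 and 1.62-fold for Insr.

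**Figure D1:**
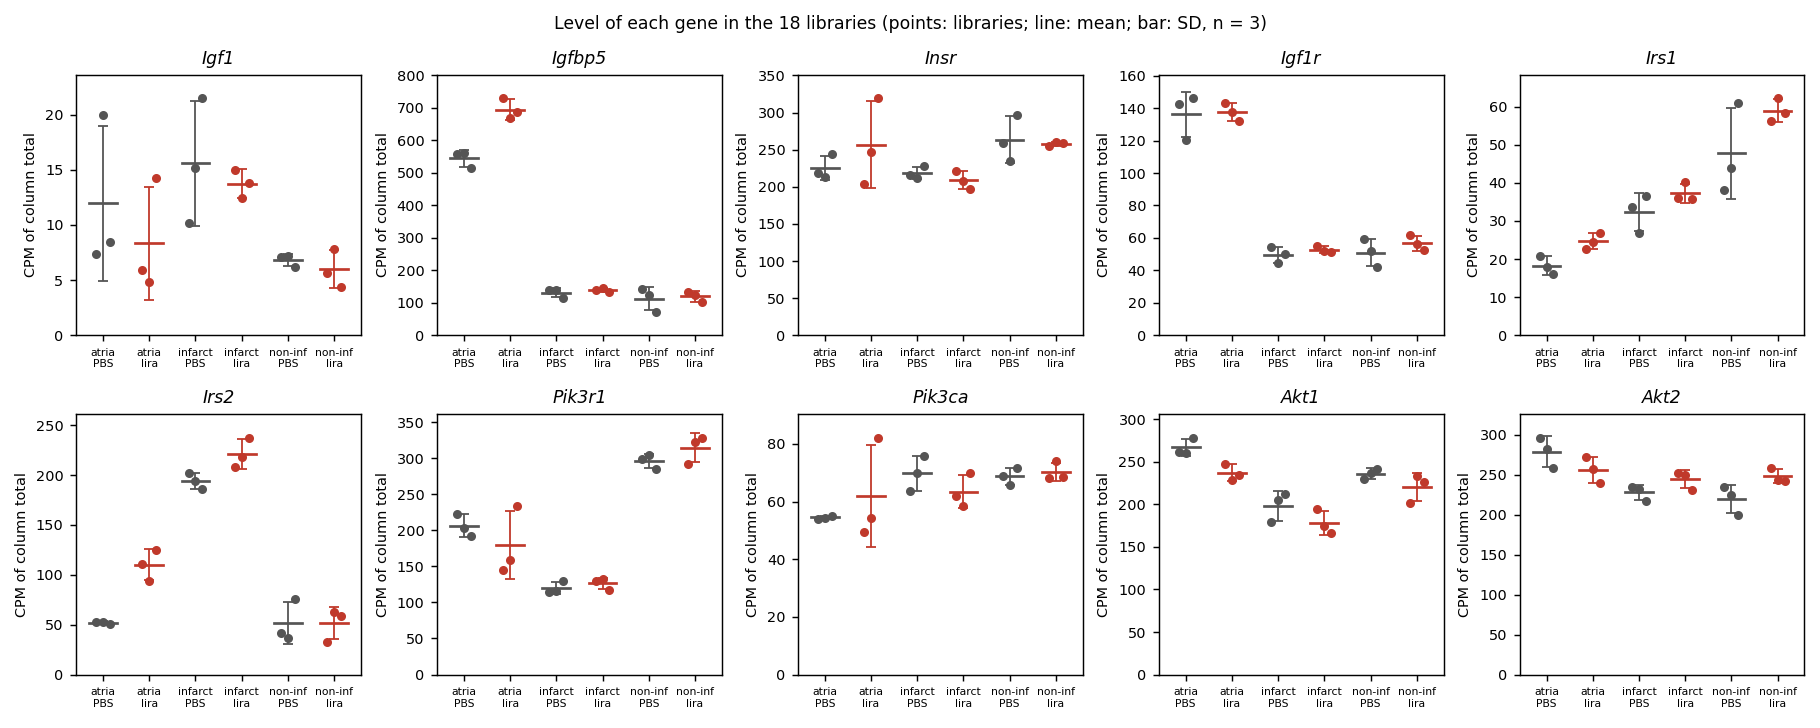
Level of each gene in every library, in CPM of the column total on linear axes from 0, by region and treatment (PBS grey, liraglutide red; points are libraries, lines means, bars SD, n = 3). Irs2 stands highest in infarcted LV (186 to 238 CPM), Igfbp5 and Igf1r stand highest in the atria, and Pik3r1 and Irs1 reach their highest levels in non-infarcted LV.

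In infarcted against non-infarcted LV, the comparison of the injured with the spared muscle of the same chamber, Irs2 and Igf1 were higher, and Pik3r1, Insr and Akt1 were lower. In PBS animals 2 of the 10 rose and 3 fell; over all 12831 tested genes 25.7% rose and 21.7% fell, so the share of the 10 that passed is close to that background. With liraglutide 2 rose and 4 fell, against 27.3% and 22.4% of 13022 genes. The 5 genes called in PBS animals were all called, in the same direction, in the liraglutide libraries, which are other libraries of the same regions; Irs1 was the sixth. The median log2 fold change of the 10 was -0.07 with PBS and -0.15 with liraglutide, against -0.02 for all genes in both.

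In atria against non-infarcted LV, Igfbp5 and Igf1r were higher and Irs1 and Pik3r1 lower in both treatments. In PBS animals 2 of the 10 rose and 4 fell, beside 26.3% and 25.6% of 13250 genes. With liraglutide 3 were higher and 2 lower, beside 24.6% and 22.9% of 13431 genes; Irs2 is among those 3, and its position there is a description only. Igfbp5, Igf1r, Irs1 and Pik3r1 were called in the same direction under both treatments. Other cells differed here too: with PBS 7 of 7 neutrophil, 8 of 12 macrophage and 4 of 10 fibroblast markers were higher in atria, 5 of 5 atrial markers were higher, and 4 of 5 ventricular and 6 of 10 cardiomyocyte markers were lower. Of 8 endothelial markers 3 were higher and 3 lower, and of 8 smooth muscle and pericyte markers 2 and 4; neither of the 2 fat cell markers tested passed. With liraglutide 5 of 7 neutrophil, 2 of 12 macrophage, 4 of 10 fibroblast and 5 of 5 atrial markers were higher, and 3 of 5 ventricular and 5 of 10 cardiomyocyte markers lower. Endothelial markers were then 3 higher and 1 lower, smooth muscle and pericyte markers 2 and 4, and of 5 fat cell markers tested 4 were higher and 1 lower. Summed neutrophil markers ran from 353 to 976 CPM in PBS and 178 to 499.5 CPM in liraglutide atria, and their part, like that of the other cells, was not tested. On column totals the median gene stood 0.13 (log2) higher in atria than in non-infarcted LV with PBS, and 0.01 higher after TMM scaling, so atrial CPM with PBS are shifted by about that much and fold changes are given after scaling.

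**Figure D2:**
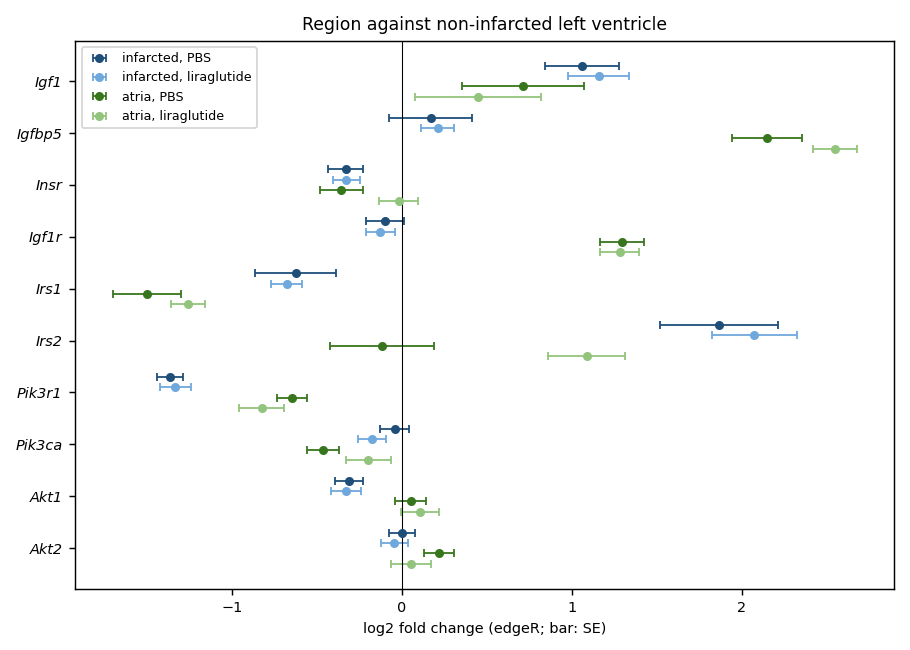
Log2 fold change of each gene against non-infarcted LV, for infarcted LV (blue) and atria (green) with PBS (dark) or liraglutide (light); points are edgeR estimates and bars SE. The dark and light points of a region lie close together for most genes, except for Irs2 in the atria (-0.12 with PBS, 1.09 with liraglutide).

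Igf1, the growth factor that activates the IGF-1 receptor, lies on chromosome 10 (87858265 to 87937042, plus strand, GRCm38). It was the scarcest of the 10. Infarcted LV had 10.2, 15.1 and 21.5 CPM with PBS and 15.02, 12.4 and 13.8 with liraglutide. Non-infarcted LV had 7.11, 7.15 and 6.23 CPM with PBS and 5.69, 7.83 and 4.42 with liraglutide. Every infarcted library lay above every non-infarcted one. In the PBS libraries Igf1 rose 2.08-fold in infarcted LV (log2 fold change 1.06, SE 0.219, adjusted p = 0.00181) and 2.23-fold with liraglutide (1.16, SE 0.177, adjusted p = 7.59e-05). In the atria it was uneven, with 7.40, 20.01 and 8.46 CPM with PBS and 5.92, 4.82 and 14.2 with liraglutide. The high PBS library is the one with Adipoq, and the high liraglutide library is replicate 3; summed fibroblast markers (10 genes) were 1551, 1695 and 1118 CPM in the PBS atria and 1008, 923 and 1890 in the liraglutide atria, so in each group the library with most Igf1 also had most of them. Single fibroblast markers did not all follow the sum. With PBS, Col1a1 (174, 133 and 90.2 CPM) and Pdgfra (61.2, 45.9 and 26.8 CPM) were highest in replicate 1, which had the least Igf1. With liraglutide both were highest in replicate 3. Fibroblast sums were not alone in being highest in the libraries with most Igf1. Summed macrophage markers (450, 535 and 374 CPM with PBS, 390, 286 and 578 with liraglutide) were highest in the same libraries. So were neutrophil sums (353, 976 and 762 CPM, then 225, 178 and 499.5) and fat cell sums (200, 1468 and 226 CPM, then 246, 224 and 285). The part of these cells in the Igf1 level was not tested. Atria did not differ from non-infarcted LV past the threshold with PBS (0.71, SE 0.36, adjusted p = 0.137) or liraglutide (0.45, SE 0.37, adjusted p = 0.352); without atria with PBS replicate 1 the former was 0.99 and passed (adjusted p = 0.0235), and without replicate 2, the library with Adipoq, it was 0.09 (adjusted p = 0.715).

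Markers of other cells moved with the ventricular difference in Igf1 and Irs2. In infarcted LV with PBS, all 10 fibroblast markers, all 8 endothelial markers, 9 of 12 macrophage markers and 5 of 8 smooth muscle and pericyte markers rose, 9 of 10 cardiomyocyte markers fell, and 0 of 7 neutrophil markers passed. With liraglutide the counts were 10 of 10, 8 of 8, 8 of 12, 6 of 8, 8 of 10 lower and 5 of 7 neutrophil markers higher. Summed fibroblast markers ran from 2227 to 2673 CPM in infarcted against 841 to 1106 CPM in non-infarcted LV with PBS, and from 2088 to 2532 against 852 to 1075 CPM with liraglutide. Summed macrophage markers ran from 401 to 479 against 258 to 302 CPM with PBS, and from 385 to 447 against 244 to 317 CPM with liraglutide. Summed endothelial markers ran from 2108 to 2265 against 1017 to 1108 CPM with PBS, and from 1939 to 2273 against 1051 to 1069 CPM with liraglutide. Smooth muscle and pericyte sums were 1878 to 2041 against 815 to 992 CPM with PBS and 1861 to 2404 against 986 to 1042 CPM with liraglutide. Neutrophil sums were 70.5 to 177 against 62.2 to 97.7 CPM, and 113 to 164 against 60.5 to 84.7 CPM. Cardiomyocyte sums were 92476 to 98291 against 118236 to 130377 CPM, and 87299 to 106350 against 124732 to 127634 CPM. No marker of these 6 lists was at 0 throughout a group. Of 8 fat cell markers 2 were tested and 1 rose in each treatment; Plin1 and Lep were at 0 in all 3 infarcted PBS libraries. What share of the differences in the 10 genes goes with these cells was not tested.

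Igfbp5 encodes a secreted IGF-binding protein that holds IGFs in the matrix and modulates their access to the receptor (chromosome 1, 72857932 to 72874884, minus strand). It had the largest regional difference of the 10. Atria held 557, 562 and 515 CPM with PBS and 730, 668 and 687 with liraglutide. Infarcted LV held 140, 138 and 116 CPM with PBS and 140, 146 and 133 with liraglutide, and non-infarcted LV 142, 124 and 72.0 with PBS and 133, 124 and 101 with liraglutide. All 6 atrial libraries lay far above all 12 ventricular ones. Igfbp5 was 4.44-fold higher in atria than in non-infarcted LV with PBS (2.15, SE 0.207, adjusted p = 7.01e-05) and 5.85-fold higher with liraglutide (2.55, SE 0.131, adjusted p = 8.04e-07). Between infarcted and non-infarcted LV it did not pass with PBS (0.17, SE 0.245, adjusted p = 0.61) or liraglutide (0.21, SE 0.0951, adjusted p = 0.0781). With the label number as a block the latter passed (adjusted p = 0.029), as it did without infarcted LV liraglutide replicate 3 (0.0417) or non-infarcted LV liraglutide replicate 1 (0.0489). The low non-infarcted library, PBS replicate 3, was also the one with the fewest atrial markers: their sum was 212, 134 and 8.99 CPM over the 3 PBS libraries and 97.5, 134 and 29.3 CPM over the 3 liraglutide libraries, whose replicate 3 was the lowest in Igfbp5 as well. The part of atrial tissue in the ventricular Igfbp5 level was not tested.

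The receptor genes parted. Igf1r, for the IGF-1 receptor (chromosome 7, 67952827 to 68233668, plus strand), had 142, 120 and 146 CPM in atria with PBS and 143, 138 and 132 with liraglutide. Infarcted LV had 54.3, 44.7 and 49.99 CPM with PBS and 55.2, 51.9 and 51.3 with liraglutide, and non-infarcted LV 59.1, 51.6 and 42.1 with PBS and 61.7, 56.4 and 52.5 with liraglutide. The atrial libraries were thus clear of the LV libraries, while the 4 LV groups overlapped. Igf1r was 2.45-fold higher in atria than in non-infarcted LV with PBS (1.29, SE 0.13, adjusted p = 1.16e-05) and 2.43-fold higher with liraglutide (1.28, SE 0.114, adjusted p = 1.98e-05). Infarcted against non-infarcted LV gave -0.10 (SE 0.113, adjusted p = 0.499) and -0.13 (SE 0.0839, adjusted p = 0.225).

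Insr, for the insulin receptor (chromosome 8, 3122061 to 3279617, minus strand), varied little between groups. It had 216, 212 and 228 CPM in infarcted LV with PBS and 221, 207 and 197 with liraglutide, against 258, 234 and 297 and 255, 260 and 260 in non-infarcted LV. The infarcted libraries lay below the non-infarcted ones within each treatment. Insr fell 1.26-fold in infarcted LV with PBS (-0.33, SE 0.104, adjusted p = 0.0188) and 1.25-fold with liraglutide (-0.33, SE 0.0804, adjusted p = 0.00343). The PBS call was lost without infarcted LV replicate 1 (0.0525) or 2 (0.077), or without non-infarcted LV replicate 3 (-0.20, adjusted p = 0.0652). Atria had 219, 213 and 244 CPM with PBS and 204, 247 and 319 with liraglutide, the last being the library with most ventricular RNA. Against non-infarcted LV, Insr was lower in PBS atria (-0.36, SE 0.127, adjusted p = 0.0354). That call was lost without atria replicate 1 (0.081) or 2 (0.102), or without non-infarcted LV replicate 1 (0.0672) or 3 (-0.23, adjusted p = 0.147). With liraglutide the difference was -0.02 (SE 0.116, adjusted p = 0.909).

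Irs1 and Irs2 encode the main IRS docking proteins, and their levels ran in opposite directions between infarcted and non-infarcted LV. Irs1 (chromosome 1, 82233101 to 82291416, minus strand) and Irs2 (chromosome 8, 10984681 to 11008458, minus strand) each have a GC-rich promoter. These are shown because the pair moved apart while sharing 1 short motif. Both are RefSeq windows of 300 bases (GRCm38.p6), from 250 bases before to 50 bases after the annotated start, 5′ to 3′ on the minus strand, Irs1 at chr1:82291390-82291689 and Irs2 at chr8:11008880-11009179. Capitals mark the letters TGTTTTG, the core of insulin response elements to which FOXO factors bind, and, in Irs1, CGTCA, the reverse of the cAMP response element core TGACG.
Irs1: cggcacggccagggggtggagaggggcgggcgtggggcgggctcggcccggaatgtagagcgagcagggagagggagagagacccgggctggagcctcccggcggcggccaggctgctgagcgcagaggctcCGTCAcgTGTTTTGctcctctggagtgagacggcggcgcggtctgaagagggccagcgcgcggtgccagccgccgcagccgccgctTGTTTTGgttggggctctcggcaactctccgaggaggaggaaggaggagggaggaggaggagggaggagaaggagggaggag
Irs2: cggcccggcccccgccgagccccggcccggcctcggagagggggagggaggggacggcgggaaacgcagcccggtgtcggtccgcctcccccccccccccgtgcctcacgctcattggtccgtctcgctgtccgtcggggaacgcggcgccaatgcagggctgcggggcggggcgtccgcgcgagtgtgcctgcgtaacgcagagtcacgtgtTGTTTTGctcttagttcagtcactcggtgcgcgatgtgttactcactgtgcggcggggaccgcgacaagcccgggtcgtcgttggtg

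TGTTTTG begins at positions -111 and -32 of the Irs1 window and at position -37 of the Irs2 window, counted from the annotated RefSeq start. For Irs2 that start differs from the GENCODE one. The window lies wholly outside the gene span given above, which is from GENCODE and ends at 11008458. Read on both strands (CAAAACA is its reverse), it occurs in 6.28% of 32851 RefSeq promoter windows of this length and in 2 of the 14 windows matched to 9 of the 10 genes. Other motifs were also searched on both strands. The complete cAMP element TGACGTCA, which contains TGACG, was in 0 of the 14 windows and 1.79% of all, and its core TGACG in 4 and 20.8%. The FOXO site GTAAACA was in 1 of the 14, a window of Akt1, and 3.65% of all, and TATAAA in 1, a window of Pik3r1, and 13.6%. The Irs1 window is 71.3% G or C and the Irs2 window 72.0%, against a median of 52.7% over all windows. A match of letters is no evidence of binding, and its absence here says nothing of the factor.

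Irs2 stood at 202, 194 and 186 CPM in infarcted LV with PBS and at 208, 218 and 238 with liraglutide. Non-infarcted LV had 41.9, 36.8 and 75.8 CPM with PBS and 33.0, 62.5 and 59.2 with liraglutide. Even the highest non-infarcted library held less than the lowest infarcted one. Irs2 rose 3.65-fold in infarcted LV with PBS (1.87, SE 0.349, adjusted p = 0.0129) and 4.21-fold with liraglutide (2.07, SE 0.25, adjusted p = 0.000989). With the label number as a block the PBS value was 1.94 and its call was lost (adjusted p = 0.0535); all 12 values of this comparison, over the settings and left-out libraries run, lay between 1.65 and 2.27. The non-infarcted libraries were the uneven side, with an SD of 21.2 CPM on a mean of 51.5 with PBS and 16.2 on 51.6 with liraglutide. In the atria Irs2 had 53.0, 52.4 and 50.5 CPM with PBS, a mean 51.9 ± 1.32 that lies on top of the non-infarcted LV level, and 111, 93.9 and 125 CPM with liraglutide, which lies between that level and the infarcted one.

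Irs1 ran the other way. Non-infarcted LV had the most, 38.1, 44.0 and 61.0 CPM with PBS and 56.2, 62.2 and 58.5 with liraglutide. Infarcted LV had 33.7, 26.9 and 36.4 CPM with PBS and 35.9, 40.2 and 35.8 with liraglutide, and the atria the least, 20.9, 18.05 and 16.0 with PBS and 22.7, 24.4 and 26.9 with liraglutide. Within each treatment the 3 regions did not overlap. Irs1 was 2.83-fold lower in atria than in non-infarcted LV with PBS (-1.50, SE 0.2, adjusted p = 0.000236) and 2.39-fold lower with liraglutide (-1.26, SE 0.0986, adjusted p = 9.12e-06). In infarcted LV it fell 1.60-fold with liraglutide (-0.68, SE 0.0924, adjusted p = 2.55e-05). With PBS its difference did not pass (-0.63, SE 0.24, adjusted p = 0.0783), but it did with the label number as a block (-0.57, adjusted p = 0.000498), with DESeq2 (0.00195) and in the fit of all 18 libraries (0.00401). The call was also made without non-infarcted LV with PBS replicate 1 (-0.79, adjusted p = 0.0259) or replicate 3 (-0.38, adjusted p = 0.0152). Exons of Irs1 overlap Gm9747 on the opposite strand over 2822 bases, and 162 bases of Irs2 overlap 9530052E02Rik, which had at most 2 counts in any library; the strand setting of the counting is not given, so reads of overlapping genes cannot be told apart.

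Within each library the ratio of Irs2 to Irs1, per kilobase of exon, does not depend on the scaling between libraries. It was 8.66, 10.4 and 7.39 in infarcted LV with PBS and 8.37, 7.84 and 9.60 with liraglutide. In non-infarcted LV it was 1.59, 1.21 and 1.80 with PBS and 0.849, 1.45 and 1.46 with liraglutide, so that in 1 library Irs1 was the more abundant transcript. Atria lay between, at 3.67, 4.20 and 4.57 with PBS and 7.08, 5.56 and 6.74 with liraglutide. The regions did not overlap in this ratio within either treatment. With liraglutide the atrial ratios hold the Irs2 values that selected the gene, so their position is a description only.

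**Figure D3:**
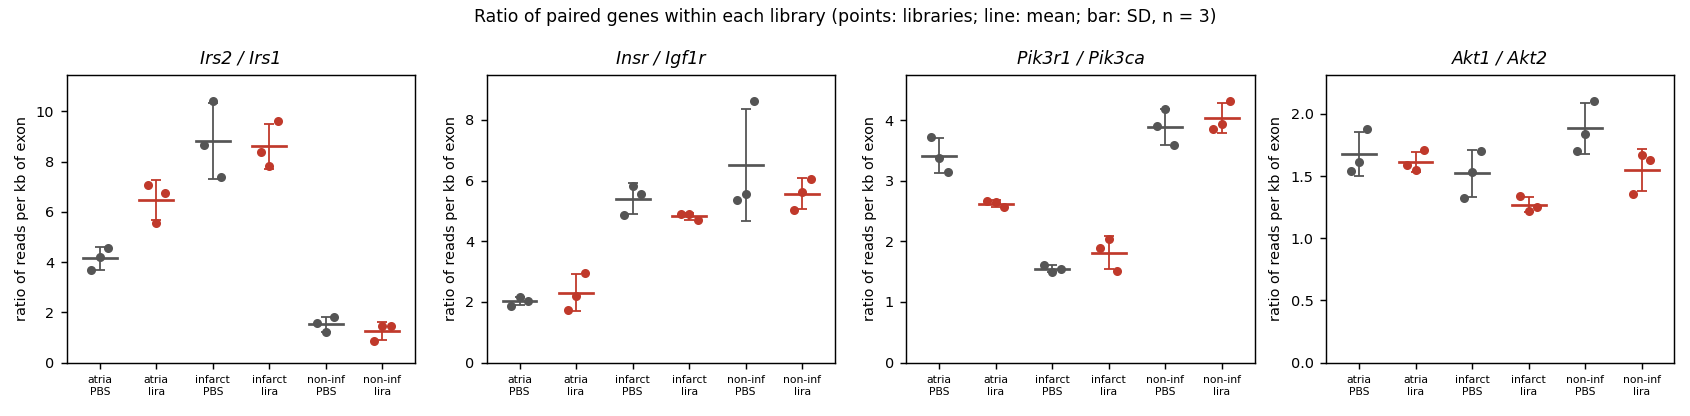
Ratio of paired genes within each library, per kilobase of exon, on linear axes from 0 (PBS grey, liraglutide red; points are libraries, lines means, bars SD, n = 3). Irs2 over Irs1 is highest in infarcted LV (7.39 to 10.4), Insr over Igf1r lowest in the atria (1.74 to 2.95), and Pik3r1 over Pik3ca lowest in infarcted LV (1.49 to 2.03).

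The subunits of phosphoinositide 3-kinase parted as well. Pik3r1, the regulatory subunit (chromosome 13, 101680563 to 101768217, minus strand), had 298, 305 and 285 CPM in non-infarcted LV with PBS and 291, 323 and 328 with liraglutide. Infarcted LV had 114, 115 and 130 CPM with PBS and 130, 132 and 117 with liraglutide CPM, less than in any library of the spared muscle. Pik3r1 fell 2.58-fold in infarcted LV with PBS (-1.36, SE 0.0778, adjusted p = 9.51e-09) and 2.52-fold with liraglutide (-1.33, SE 0.091, adjusted p = 2.76e-08). Its 12 values lay between -1.41 and -1.33 with PBS and between -1.40 and -1.27 with liraglutide over all settings and left-out libraries. Atria were intermediate, with 223, 203 and 192 CPM with PBS and 146, 159 and 234 with liraglutide, and lower than non-infarcted LV in both treatments (-0.65, SE 0.0879, adjusted p = 0.000106 and -0.83, SE 0.13, adjusted p = 0.000633).

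Pik3ca, the catalytic subunit (chromosome 3, 32397671 to 32468486, plus strand), hardly moved between the LV regions, at 63.8, 69.8 and 75.7 CPM in infarcted and 68.8, 65.7 and 71.6 in non-infarcted LV with PBS (-0.04, SE 0.0875, adjusted p = 0.714). With liraglutide the values were 61.8, 58.6 and 69.8 against 68.3, 74.0 and 68.5 CPM (-0.17, SE 0.0818, adjusted p = 0.0881), a difference that passed without infarcted LV replicate 3 (adjusted p = 0.0354). Atria with PBS had 54.1, 54.4 and 55.1 CPM, which is lower than non-infarcted LV (-0.46, SE 0.096, adjusted p = 0.00199). Atria with liraglutide had 49.3, 54.3 and 82.2 CPM and did not pass (-0.20, SE 0.133, adjusted p = 0.251), but without their replicate 3, the library with most ventricular RNA, the difference passed (-0.36, adjusted p = 0.00274). The ratio of Pik3r1 to Pik3ca per kilobase was 3.89 ± 0.295 in non-infarcted and 1.55 ± 0.0607 in infarcted LV with PBS, and 4.03 ± 0.252 and 1.81 ± 0.27 with liraglutide.

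Of the AKT kinase genes, Akt1 was lower in infarcted LV, and Akt2 had the narrowest range over libraries of the 10 genes. Akt1 (chromosome 12, 112653821 to 112674884, minus strand) had 179, 205 and 212 CPM in infarcted and 229, 237 and 242 in non-infarcted LV with PBS, and 194, 174 and 166 against 202, 233 and 227 with liraglutide. The infarcted libraries lay lower without overlap. Akt1 fell 1.24-fold with PBS (-0.31, SE 0.0822, adjusted p = 0.00617) and 1.25-fold with liraglutide (-0.33, SE 0.0897, adjusted p = 0.00685). In atria it had 262, 261 and 279 CPM with PBS and 248, 229 and 235 with liraglutide, not different from non-infarcted LV past the threshold (0.05, SE 0.0921, adjusted p = 0.664 and 0.11, SE 0.112, adjusted p = 0.452). Akt2 (chromosome 7, 27591552 to 27640826, plus strand), the form most tied to insulin-stimulated glucose uptake, had 200 to 296 CPM over all 18 libraries. It did not pass in infarcted LV (0.00, SE 0.0769 with PBS and -0.04, SE 0.0806 with liraglutide). In atria with PBS the value was 0.22 (SE 0.0886, adjusted p = 0.0583), which passed with the label number as a block (0.0362) and in the fit of all 18 libraries (0.0371). With liraglutide the value was 0.05 (SE 0.117, adjusted p = 0.732).

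Irs2 was chosen by its rise in the atria with liraglutide. In the fit of that comparison 1 of 13530 genes, Irs2 itself, was past the threshold (0.00739%), which is the selecting value and is no test of it. That position was also unstable: Irs2 was not past the threshold in 7 of 12 alternatives, namely the fit of all 18 libraries, the block, and the fits without treated replicate 1 or 2 or without control replicate 1, 2 or 3, although its fold change stayed between 1.13 and 1.26. Its atrial level was 110 ± 15.7 CPM with liraglutide against 51.9 ± 1.32 with PBS, a fold change of 1.18 (SE 0.108), and all treated libraries lay above all control libraries. For the rest of the 10 the atrial values are likewise a description. Irs1 and Igfbp5 were also higher in all 3 treated atria, by 0.52 (SE 0.129) and 0.46 (SE 0.113) on the log2 scale. Akt1 was lower on column totals in all 3 (229 to 248 against 261 to 279 CPM), but its groups overlapped after TMM scaling, where its fold change was -0.07 (SE 0.115). The groups did not overlap for 3 genes upward and 1 downward, while 2.94% of all genes lay higher and 12.0% lower on the same column totals. The 3 include Irs2, which was selected on this difference, so their count is no test against that share. Insr (0.28, SE 0.14), Pik3ca (0.27, SE 0.145) and Pik3r1 (-0.12, SE 0.14) were highest in liraglutide replicate 3 of the treated atria, which held Myl2 at 924 CPM; the part of ventricular RNA in them was not tested. Igf1 (-0.46, SE 0.482), Igf1r (0.12, SE 0.135) and Akt2 (-0.01, SE 0.125) complete the list.

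Beside these values, summed ventricular markers (5 genes) stood at 1325, 879 and 2364 CPM in the treated atria and 961, 792 and 825 CPM in the control atria. Irs2 in the treated libraries had the same order, 111, 93.9 and 125 CPM. Treated replicate 2, with Myl2 at 8.30 CPM, had 93.9 CPM of Irs2, and the control libraries at most 53.0 CPM. The part of ventricular RNA in the atrial Irs2 level was not tested. The mean Irs2 level was 51.5 CPM in non-infarcted and 194 CPM in infarcted LV with PBS, beside 51.9 CPM in control atria. With replicate 3 of the treated and replicate 2 of the control atria both left out, the Irs2 fold change was 1.13.

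In infarcted LV 0 of the 10 genes passed with liraglutide against PBS, as did 0 of 12988 tested genes (0%); at an unadjusted p under 0.05 edgeR gave 1 of the 10 and 681 of all, and DESeq2 called 0 of the 10. The median of the 10 was 0.10 against 0.00 for all genes. Irs2 was higher in each treated infarct library (208 to 238 CPM) than in any control (186 to 202 CPM), by 0.20 (SE 0.082, adjusted p = 0.936). It was the 1 member whose groups did not overlap; of all genes 4.07% lay higher and 5.63% lower without overlap. Irs1 had 0.24 (SE 0.118, adjusted p = 0.951), and the other 8 lay between -0.14 and 0.11.

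Non-infarcted LV gave 0 of 10 under liraglutide as well, beside 0 of 12919 genes (0%), with 1 of the 10 and 561 of all at an unadjusted p under 0.05, and 0 of the 10 by DESeq2. Akt2 was the member without overlap, 242 to 259 against 200 to 234 CPM (0.16, SE 0.0696, adjusted p = 0.999), where 5.38% of genes lay higher and 3.58% lower. Irs2 had -0.01 with a wide error (SE 0.445), since its libraries ranged from 33.0 to 75.8 CPM. The difference between the 2 LV regions in the response to liraglutide was tested as an interaction over 12 libraries: 0 of the 10 and 0 of 13325 genes passed (0%), with 0 and 255 at an unadjusted p under 0.05 and 0 of the 10 by DESeq2. For Irs2 that difference was 0.21 (SE 0.448). The same contrast with the atria contains the value that selected Irs2 and was not tested. Side by side, Irs2 had 1.18, 0.20 and -0.01 in atria, infarcted and non-infarcted LV, Irs1 0.52, 0.24 and 0.29, and Igfbp5 0.46, 0.10 and 0.06.

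**Figure D4:**
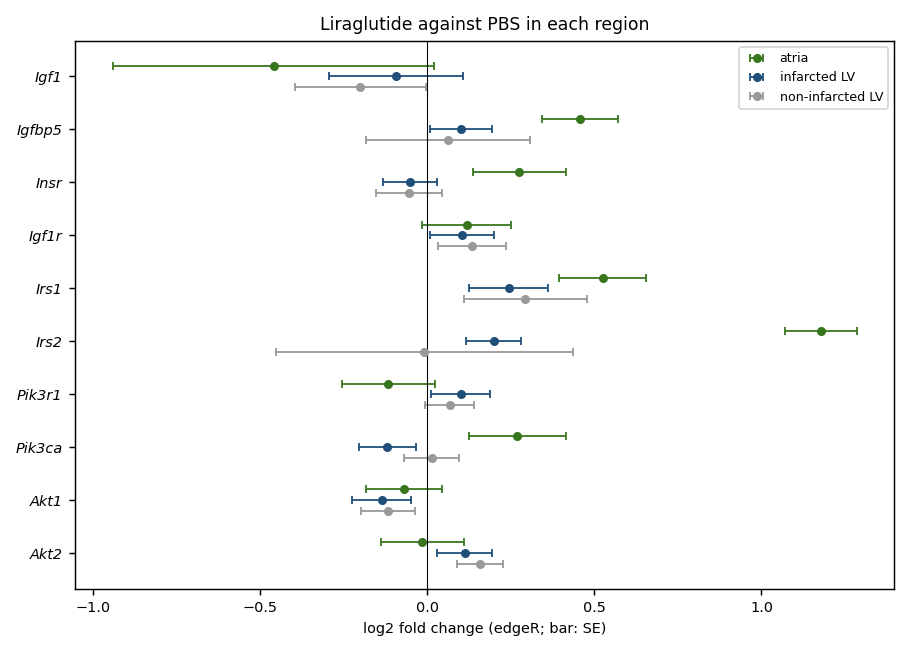
Log2 fold change with liraglutide against PBS for each gene in atria (green), infarcted LV (blue) and non-infarcted LV (grey); points are edgeR estimates and bars SE. Irs2 in the atria (1.18), the value that selected it, stands apart; in both LV regions the 10 genes lie between -0.20 and 0.29.

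A further 80 genes of the pathway, listed by their place in it, put the 10 in context. In infarcted against non-infarcted LV with PBS, 72 were tested, of which 24 rose, 12 fell and 36 did not pass (median 0.06, all genes -0.02). With liraglutide 28 rose, 17 fell and 27 did not pass. Over all genes 25.7% rose and 21.7% fell with PBS, and 27.3% and 22.4% with liraglutide, and the counts by role are to be read against these shares. Ins1, Ins2, Igfbp1, Igfbp2, Insrr, Irs3, Irs4 and Pappa2 were too low to test there. Igf2, the second IGF ligand, rose from 20.6 ± 2.85 to 41.0 ± 3.205 CPM with PBS (0.93, SE 0.107, adjusted p = 5.25e-06) and by 1.12 (SE 0.0909, adjusted p = 1.5e-07) with liraglutide. Of 8 tested binding proteins and proteases 5 rose and 2 fell with PBS (all genes 25.7% and 21.7%), and 6 and 2 with liraglutide (27.3% and 22.4%). Igfbp4 (0.99, SE 0.0811, adjusted p = 1.85e-07) and Igfbp3 (0.96, SE 0.105, adjusted p = 3.44e-06), which bind circulating and tissue IGFs, were among those that rose with PBS. Igfals, the acid-labile subunit of the circulating IGF complex, fell (-2.13, SE 0.299, adjusted p = 4.86e-05, from 7.35 ± 1.44 to 1.73 ± 0.768 CPM).

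Of 8 inhibitors acting at the receptors or below them 5 rose and 0 fell with PBS (all genes 25.7% and 21.7%). With liraglutide 6 rose and 1 fell (27.3% and 22.4%). Socs3, a cytokine-induced inhibitor that also targets IRS proteins, stood at 884 ± 77.3 in infarcted against 96.9 ± 28.0 CPM in non-infarcted LV with PBS (3.13, SE 0.273, adjusted p = 0.000527) and rose by 3.49 (SE 0.12, adjusted p = 3.97e-11) with liraglutide. The ubiquitous glucose transporter gene Slc2a1 rose by 1.85 (SE 0.0921, adjusted p = 1.1e-09) with liraglutide. With PBS it was higher as well, at 118 ± 15.5 CPM in infarcted against 34.9 ± 5.99 CPM in non-infarcted LV. Slc2a4, the insulin-responsive transporter of muscle and fat, fell by 0.50 in both treatments (SE 0.0763, adjusted p = 8.98e-05 with PBS). Foxo4, a FOXO factor, also fell (-0.49, SE 0.083, adjusted p = 0.00019 with liraglutide). Of 14 genes of the mTOR complexes and their TSC brake 1 rose and 5 fell with PBS, and 0 and 6 with liraglutide, beside the same shares of all genes.

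Paralogs of the PI3K subunits were followed whatever their values. Pik3r2, the other widely expressed regulatory subunit, did not pass in infarcted LV (0.15, SE 0.112, adjusted p = 0.271 with PBS), in contrast to the fall of Pik3r1, nor did Pik3cb (0.05, SE 0.119, adjusted p = 0.775). Pik3cd, the catalytic subunit typical of leukocytes, rose (0.45, SE 0.177, adjusted p = 0.0486 with PBS, 0.43, SE 0.167, adjusted p = 0.0431 with liraglutide).

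In atria against non-infarcted LV, 23 of 72 tested pathway genes were higher and 17 lower with PBS, and 22 and 19 of 73 with liraglutide. Over all genes the shares were 26.3% and 25.6% with PBS and 24.6% and 22.9% with liraglutide. Tbc1d1, a Rab GTPase-activating protein that AKT phosphorylates, had 426 ± 43.2 CPM in atria and 22.2 ± 2.15 in non-infarcted LV with PBS (4.14, SE 0.123, adjusted p = 3.32e-09). Igf2 was 3.00 higher on the log2 scale (SE 0.142, adjusted p = 5.88e-08) and Igfbp4 2.09 higher (SE 0.126, adjusted p = 2.97e-07). The ligand Igf2 and the binding protein genes Igfbp4 and Igfbp5 were thus higher in atria, as Igf1r was. Binding proteins and proteases did not all go this way. Of 8 tested with PBS, 4 were higher and 2 lower (all genes 26.3% and 25.6%). With liraglutide 3 of 9 were higher and 2 lower (24.6% and 22.9%). The adaptors Grb14 (-1.38, SE 0.0913, adjusted p = 5.88e-07) and Grb10 (-1.36, SE 0.125, adjusted p = 6.14e-06), which bind and restrain the insulin and IGF receptors, were lower in the atria, as was Slc2a4 (-0.94, SE 0.098, adjusted p = 1.44e-05). Most inhibitors acting at the receptors or below them went the other way. Of 8 tested with PBS, 6 were higher in atria, and only Grb14 and Grb10 were lower (all genes 26.3% and 25.6%). With liraglutide 4 of the 8 were higher and 2 lower (24.6% and 22.9%). With liraglutide against PBS, 0 of the tested pathway genes passed in atria (72), infarcted LV (72) or non-infarcted LV (71).

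**Figure D5:**
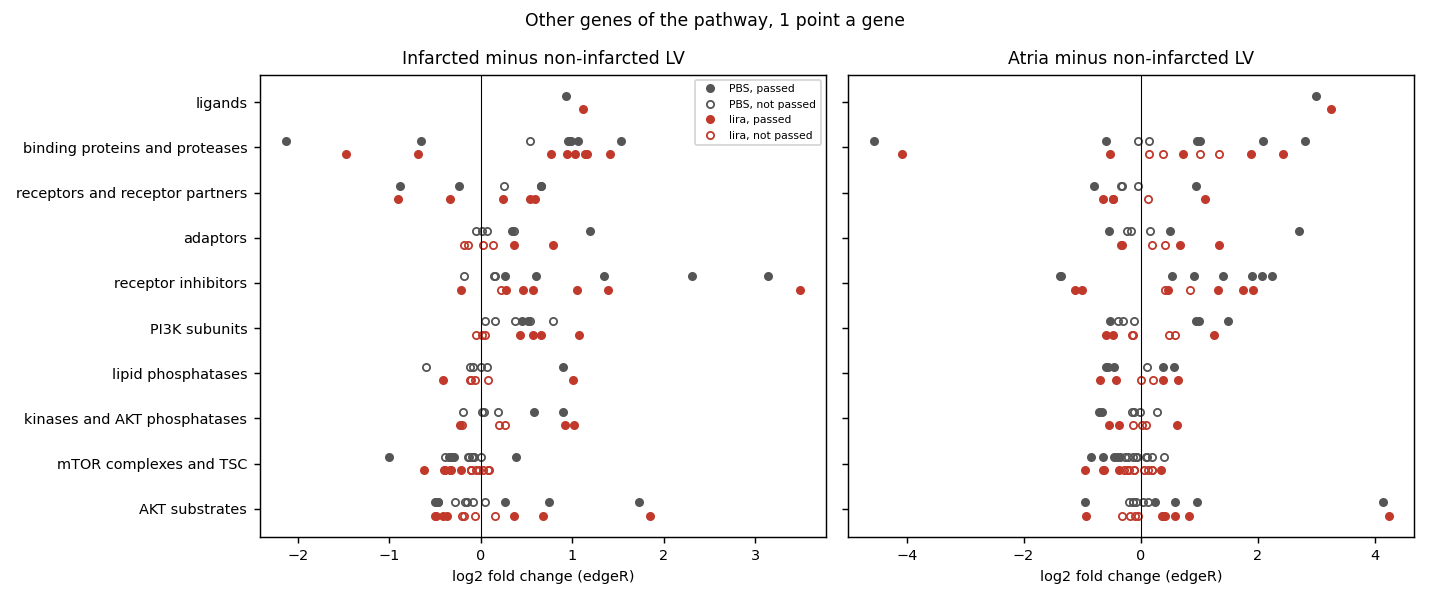
Log2 fold changes of the other pathway genes by role, for infarcted (left) and atria (right) against non-infarcted LV, with PBS (grey) and liraglutide (red); 1 point a gene, filled where the adjusted p was under 0.05. Points on the far right are Socs3 on the left panel (3.13 and 3.49) and Tbc1d1 on the right (4.14 and 4.24).

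Finally, genes with a similar profile over the 18 libraries were listed for Irs2, Igf1 and Igfbp5, among 8889 genes with a mean of at least 10 CPM. The points share region and depth, so the values are descriptive. Irs2 was closest to Jun, an AP-1 transcription factor gene (Pearson r = 0.975 of log2(CPM + 1)), with mean levels of 565 and 591 CPM in infarcted LV, 103 and 93.5 in non-infarcted LV, and 94.2 and 201 in atria with PBS and liraglutide. Rnf19a (0.951) and the endothelin gene Edn1 (0.950) followed. Igf1 was closest to the matrix proteoglycan gene Vcan (0.944), then Olfr1033 (0.919) and Stk17b (0.918). Igfbp5 was closest to Phkg1 (0.989), the mesothelial gene Msln (0.988) and Rp1 (0.985).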

How the data were processed

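The authors deposited a table of raw counts by gene symbol, with a column for each of the 18 libraries. Per the labels' protocols, RNA was extracted with TRIzol and polyadenylated RNA was made into libraries with a stranded TruSeq kit. The submitters' processing notes name STAR 2.7.9a, the mm10 build and DESeq2, the last without a version. Which tool counted reads, with which annotation and strand setting, is not given in the sources used here. Groups follow the labels, with 3 libraries each called biological replicates there. The p values set a group difference against the spread between these libraries, with dispersion estimates that borrow from all genes. The main fits did not pair libraries of the same number.

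Members and gene lists were chosen with earlier results of these data known. The libraries of a comparison, and no others, entered its fit. Fits used edgeR 4.0.16 under R 4.3.3, with TMM factors after filterByExpr, the robust quasi-likelihood test and p values adjusted over all tested genes by Benjamini-Hochberg, and were tested on simulated data. DESeq2 1.42.0, RLE factors, no filter on low counts, all 18 libraries in one fit, a replicate block, and leaving out each library were the alternatives. Library pairs within groups differed beyond sampling noise (chi-square per degree of freedom 2.65 to 62.9), so none was counted as a duplicate. Same-numbered libraries deviated together in infarcted against non-infarcted LV (correlations 0.23 to 0.25 with PBS, 0.17 to 0.20 with liraglutide) and in atria against non-infarcted LV with PBS (0.15 to 0.25), where the block value is given beside a call it changes. The labels do not say that a number marks an animal. Positions and exon lengths are from GENCODE M21. Named pathway genes are, in each comparison, up to 3 with the smallest p in each direction among those past the threshold, plus Igf2, Pik3cb, Pik3cd, Pik3r2, Igfbp3 and Igfbp4 whatever their values; some genes that this rule names are not reported here. Similar profiles are the 3 genes with the highest correlation.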

Additional observations from a re-analysis of the deposited data

How the results depend on the processing

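Over the alternatives run (DESeq2, RLE factors, no filter on low counts, all 18 libraries in one fit, a replicate block, each library left out), 4 to 6 of the 10 genes passed in infarcted against non-infarcted LV with PBS and 6 to 8 with liraglutide. In atria against non-infarcted LV the count was 5 to 7 with PBS and 5 throughout with liraglutide. In the main fit Irs2 is among those 5, on the atrial liraglutide values that selected it, so its part in the count is a description only. It was 0 throughout for liraglutide in both LV regions and for their interaction. The atrial fold change of Irs2 with liraglutide, a description, lay between 1.13 and 1.26, but Irs2 was not past the threshold there in 7 of 12 alternatives, among them 5 of 6 that left out 1 library. Of 950 fold changes of the 10 genes recomputed, 63 turned sign, 0 of them called, and the largest of these was 0.46 in size.

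With the replicate block, which pairs libraries of the same replicate number, 5 and 7 of the 10 passed in infarcted LV (PBS, liraglutide) and 7 and 5 in atria. In the LV comparisons of liraglutide with PBS 0 passed, and Irs2 in the atria was 1.17 and no longer past the threshold. Liraglutide and PBS libraries come from different mice, so across treatments the block pairs no animal. In the region comparisons the block changed the calls given for Irs1, Irs2, Igfbp5 and Akt2, and no other member's. The numbers did not pair the atrial and non-infarcted liraglutide libraries (correlations -0.09 to -0.01), nor liraglutide with PBS libraries in any region, where not every library correlated best with its own number. On TMM-adjusted totals 4 of 60 group levels moved by more than their SD: in atria with PBS, Irs2 to 49.9, Pik3ca to 52.3 and Akt1 to 257 CPM, and Akt1 to 243 CPM in non-infarcted LV with PBS. The PBS calls of Insr were lost on leaving out single libraries, whereas its liraglutide call in infarcted LV, and those of Akt1 in both treatments, passed in every alternative run. Igf1 had the lowest counts, 52 to 377 a library.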
